A study of Danio rerio with 14 samples.

Results

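The *hox* genes of paralog groups 5 and 6 are 8 genes on the Affymetrix Zebrafish array: *hoxa5a*, *hoxb5a*, *hoxb5b* and *hoxc5a* of group 5, and *hoxb6a*, *hoxb6b*, *hoxc6a* and *hoxc6b* of group 6. They were chosen by gene symbol from 8793 named genes, of which 42 are *hox* genes. Each is measured by a single probe set (Dr.19905.1.S1_at, Dr.5572.1.S1_at, Dr.5756.1.S1_at, Dr.5752.1.S1_at, Dr.509.1.S1_at, Dr.5725.1.S1_at, Dr.5735.1.S1_at and Dr.5729.1.S1_at, in the order just given). Total RNA of whole zebrafish embryos was hybridized at 3 stages, 4, 6 and 9 hpf (hours post fertilization), from untreated embryos and from embryos treated with retinoic acid (RA), and RNA of ZF4, a zebrafish fibroblastic cell line, was hybridized for comparison. There are 14 arrays in 7 groups, 2 arrays in each. By the study's methods the embryos were Ekkwill fish from natural matings, and RA was in their water from early cleavage until harvest. For these arrays the methods mention untreated embryos only at 9 hpf, whereas the sample labels give them at all 3 stages, and the labels were followed.

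Hox proteins are homeodomain transcription factors that give cells their position along the head to tail axis, and genes at one end of a cluster are switched on earlier and further towards the head than genes at the other end. Groups 5 and 6 stand near the middle of the clusters and are known for their roles at the level of the posterior hindbrain, the anterior spinal cord and the anterior trunk. RA, a vitamin A derivative made in the mesoderm of the trunk, binds nuclear receptors that act on *hox* genes, those of the anterior and middle cluster above all. A genome duplication in the teleost ancestor left many zebrafish *hox* genes with an a and a b duplicate, and 3 such pairs are present here: *hoxb5a* and *hoxb5b*, *hoxb6a* and *hoxb6b*, and *hoxc6a* and *hoxc6b*. In the RefSeq annotation (GRCz12tu), used here for gene order alone, *hoxb5a* lies next to *hoxb6a*, *hoxb5b* next to *hoxb6b* and *hoxc5a* next to *hoxc6a*. In the same annotation *hoxb5a* and *hoxb6a* fall within the annotated span of *hoxb3a*, *hoxc5a* and *hoxc6a* within that of *hoxc3a*, *hoxb5b* and *hoxb6b* within that of *hoxb1b*, and *hoxa5a* within that of *hoxa3a*. Whether any probe lies in sequence shared with the longer gene was not examined.

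Values are on the log2 scale. As a background level, the 95th percentile of the 17 AFFX-r2-Tag control probe sets over all 14 arrays was used. These controls match no zebrafish gene, and the level is 5.30. Where every array of a group lies at or below it, a difference is given as a lower limit, for which the group's mean is replaced by the background level. The limit holds for the difference of the means, and single arrays can lie closer to background. Where both groups lie at or below background no fold is given. Differences between groups were tested with limma over all 15502 probe sets, and a gene is called where its Benjamini-Hochberg adjusted p is under 0.05. The adjusted p printed beside a lower limit belongs to the difference as deposited, which rests in part on values below background. Whether the RNA of the 2 arrays in a group had separate clutches or cultures as its source is not labelled. The p-values therefore measure the spread between these arrays, which may be technical. In fits without 1 array, the remaining array of that group is assumed to vary like the other groups, which give the spread.

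The arrays differ in ways that the treatment does not account for. Arrays of 1 group correlated at 0.929 to 0.952 across probe sets. Untreated and RA arrays of the same stage correlated to a similar degree, at 0.930 to 0.955 at 4 hpf, 0.919 to 0.944 at 6 hpf and 0.917 to 0.958 at 9 hpf. The median of the Tag controls was 1.83 and 1.94 on the untreated 6 hpf arrays against 2.21 to 3.91 on the other 12. At 4 hpf array 2 of either treatment had more signal from enveloping layer markers than array 1 (log2 of their summed linear values 12.3 against 9.01 untreated and 11.1 against 8.10 with RA). Late gastrula markers were higher on array 2 as well (11.28 against 8.03 untreated and 10.55 against 8.21 with RA). Yolk syncytial layer markers were too (11.67 against 9.80 and 10.93 against 9.87). Maternal markers were lower on array 2 (13.60 against 14.15 and 13.87 against 14.29). At 9 hpf the same sum of yolk syncytial layer markers was 13.8 and 12.4 on untreated arrays 1 and 2 and 12.3 and 13.6 on RA arrays 1 and 2. By the number of markers above background in each group, the stage and cell labels matched, though the 2 arrays at 4 hpf differed in these markers as given. All 9 measured markers of late gastrula neural plate and mesoderm were above background on both untreated 9 hpf arrays, against 2 at 4 hpf, all 6 maternal markers were above it at 4 hpf and 2 at 9 hpf, and 12 of 14 fibroblast markers were above it on both ZF4 arrays, against 3 to 5 in the embryos. The 2 that were not are *fn1b* and *thy1*. As a check of the treatment, *cyp26a1*, which encodes an RA-degrading enzyme and is itself a target of RA, was higher in RA-treated embryos by 1.95 ± 0.26 (SE) at 4 hpf (adjusted p = 0.0279), by 1.84 ± 0.26 at 6 hpf (adjusted p = 0.0181) and by 0.71 ± 0.26 at 9 hpf (adjusted p = 1), limma, n = 2 arrays a group.

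None of the 8 genes was above background on both arrays of untreated embryos at 4 or 6 hpf, and 4 were at 9 hpf. With RA the number was 1 at 4 hpf, 5 at 6 hpf and 6 at 9 hpf, and in ZF4 cells it was 2. Over all probe sets the share above background on both arrays was 55.6%, 57% and 56.6% in untreated embryos of 4, 6 and 9 hpf, 55.1%, 57.8% and 56.7% with RA, and 58.5% in ZF4. The number of group 5 and 6 genes varied among the groups while that share hardly did. The 4 genes at 9 hpf in untreated embryos are *hoxb5a*, *hoxb5b*, *hoxc6a* and *hoxc6b*. With RA at 6 hpf all 4 group 5 genes and *hoxb6b* stood above background, and *hoxc6a* and *hoxc6b* joined only at 9 hpf, when *hoxa5a* was above it on 1 of 2 arrays. *hoxb6a* was above background in no embryo group. As the RNA came from whole embryos or whole cultures, fewer expressing cells and less RNA per cell cannot be told apart.

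**Figure D1:**
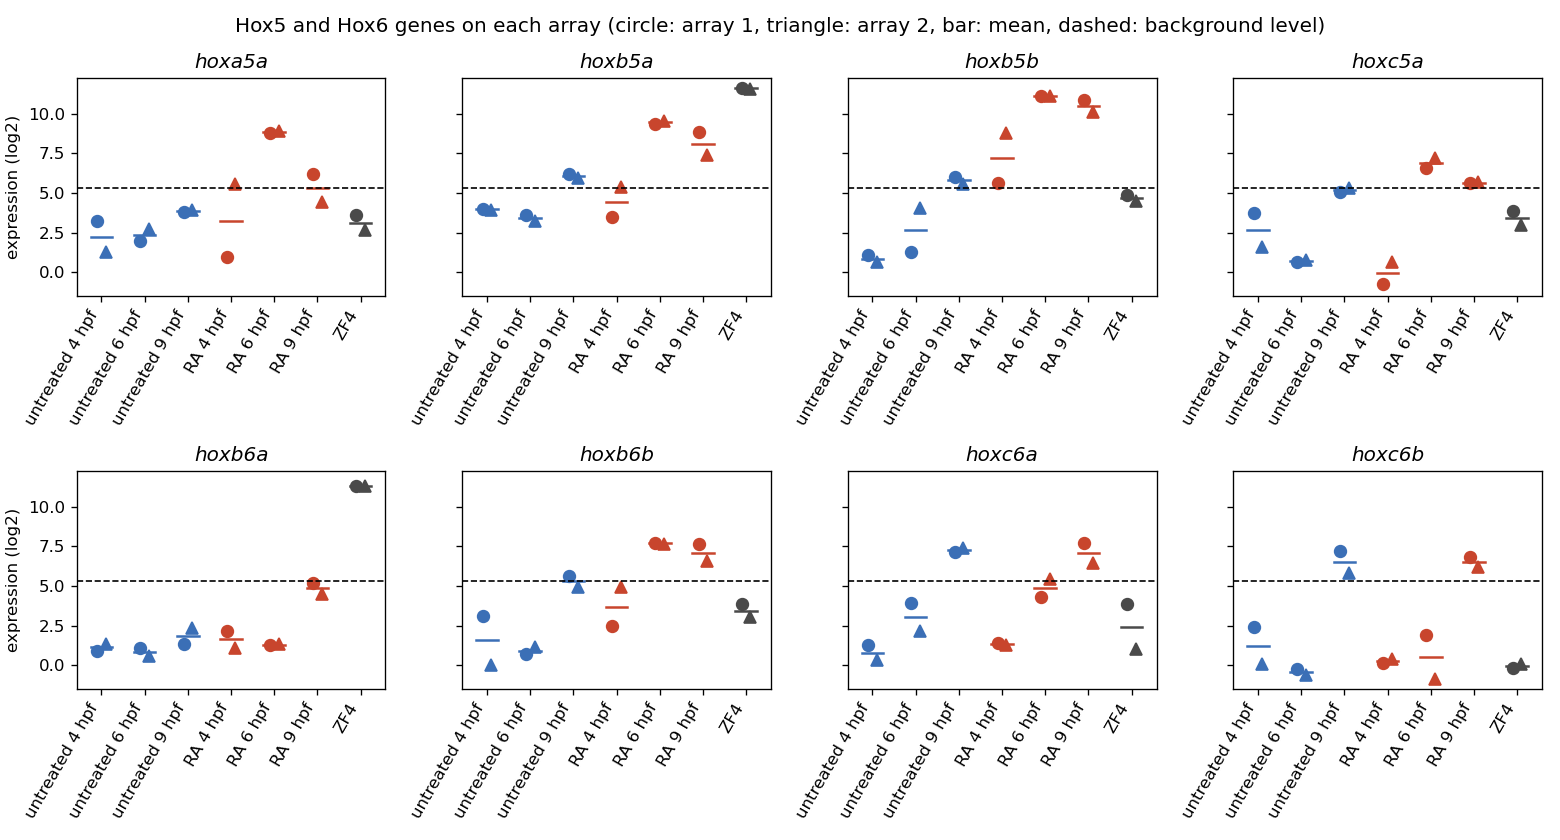
Expression of the 8 genes on each array (vertical axis, log2) in the 7 groups (horizontal axis), with array 1 as circles, array 2 as triangles, the mean of the 2 as a bar and the background level of 5.30 as a dashed line. At 6 hpf 5 genes stand above the line with RA (red) on both arrays and none without it (blue), *hoxc6a* and *hoxc6b* stand above it at 9 hpf with and without RA, and in ZF4 (grey) only *hoxb5a* and *hoxb6a* do.

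The course in untreated embryos shows at which of the 3 stages the probe sets of these genes passed the background level. At 4 hpf the 16 values of the 8 genes ranged from 0.03 to 4.03 and at 6 hpf from -0.59 to 4.08, all below background. Between these stages limma called 1 of the 8 genes, *hoxc6a*, among 40.1% of all probe sets called in either direction. Its values were 1.28 and 0.32 at 4 hpf and 3.95 and 2.20 at 6 hpf, which do not overlap but lie below background, and the call was lost in 8 of 14 other settings, among them those without untreated 4 hpf array 1 (adjusted p = 0.0521), untreated 4 hpf array 2 (0.165) or untreated 6 hpf array 1 (0.257). At 9 hpf *hoxc6a*, a trunk gene of the hoxca cluster, was at 7.18 and 7.38. This is at least 3.95-fold above 6 hpf (adjusted p = 0.00765), and both 9 hpf arrays lay above all 4 arrays of the earlier stages. Its duplicate *hoxc6b* was at 7.23 and 5.85, at least 2.36-fold above 6 hpf (adjusted p = 0.00379), after -0.24 and -0.59 at 6 hpf. *hoxb5a* was at 6.23 and 5.96 at 9 hpf and at 3.65 and 3.26 at 6 hpf, at least 1.73-fold higher (adjusted p = 0.025). Thus 3 of the 4 genes above background on both arrays at 9 hpf were called, and *hoxb5b* was not. These genes are grouped by their 9 hpf level, so that a higher level than at 6 hpf is in part built into the grouping.

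*hoxc5a* and *hoxb6b* were called higher at 9 than at 6 hpf as well, yet only just reached background. *hoxc5a* was at 5.09 and 5.33 at 9 hpf and at 0.67 and 0.78 at 6 hpf (adjusted p = 0.00749), and *hoxb6b* at 5.65 and 4.94 against 0.72 and 1.13 (adjusted p = 0.0243). For both, 1 of 2 arrays lay above background at 9 hpf and no lower limit over 1 can be given. *hoxb5b* was at 6.02 and 5.59 at 9 hpf, above its 1.31 and 4.08 at 6 hpf on both arrays, and was not called (adjusted p = 0.0806). *hoxa5a*, at 3.82 and 3.94, and *hoxb6a*, at 1.34 and 2.39, remained below background at 9 hpf. In all 5 of 8 genes were called higher and 0 lower, against 4.37% of all probe sets called higher. The median change of the 8 genes was 3.66 (0.34 with values raised to background), and 0.01 over all probe sets. The count was 3 without any 1 of the 4 arrays. It was 1 with values below background raised to that level, and the Tag controls had a lower median at 6 hpf (1.83 and 1.94) than at 9 hpf (3.27 and 3.91). Their part in the result was otherwise not tested.

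Comparing 9 with 4 hpf directly, 6 of the 8 genes were called higher, against 21.8% of all probe sets. Here *hoxb5b* joined the 5 genes above, from 1.1 and 0.64 at 4 hpf to at least 1.42-fold higher at 9 hpf (adjusted p = 0.00227). *hoxc6a* had the lowest adjusted p of the 8, 7.4e-05. The count was 3 without untreated 4 hpf array 2, 3 without untreated 9 hpf array 1, and 1 with values raised to background.

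At 4 hpf RA-treated embryos had 1 of the 8 genes above background on both arrays, *hoxb5b*. It was at 5.61 and 8.78 with RA and at 1.1 and 0.64 without, so that the groups did not overlap. The difference is at least 3.73-fold and was not called (adjusted p = 0.0509), while 0.0903% of all probe sets were called. The treated arrays lay 3.17 apart, and the higher, array 2, is the one with more enveloping layer signal (11.1 against 8.10). It is also the one with more late gastrula signal (10.55 against 8.21) and less maternal signal (13.87 against 14.29). Without RA 4 hpf array 1 the gene was called (adjusted p = 0.0169), and without array 2 it was not (adjusted p = 0.0615). The part of that difference between arrays was otherwise not tested. *hoxa5a*, at 5.56 against 0.99, *hoxb5a*, at 5.40 against 3.48, and *hoxb6b*, at 4.92 against 2.51, also had their higher value on RA array 2. None of these was called, and *hoxb6b* lay below background on both arrays. *hoxc5a* was at -0.76 and 0.66 with RA and at 3.73 and 1.59 without, all below background (adjusted p = 0.451).

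At 6 hpf 4 of the 8 genes were higher with RA and 0 lower, against 0.252% of all probe sets called higher. The 4 are 3 genes of group 5 and *hoxb6b*. *hoxb5b* was at 11.12 and 11.15 with RA and at 1.31 and 4.08 without, at least 56.9-fold higher (adjusted p = 0.00674). *hoxb5a* was at 9.39 and 9.55 against 3.65 and 3.26, at least 17.9-fold higher (adjusted p = 0.00454). *hoxb6b*, the neighbour of *hoxb5b*, was at 7.75 and 7.67 against 0.72 and 1.13, at least 5.3-fold higher (adjusted p = 0.0308). *hoxc5a* was at 6.59 and 7.22 against 0.67 and 0.78, at least 3.03-fold higher (adjusted p = 0.0114). In each the 2 treated arrays lay within 0.64 of each other and above background, and the untreated arrays lay below it.

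*hoxa5a*, the only group 5 gene of the hoxaa cluster, had values of the same kind, 8.77 and 8.89 with RA and 1.99 and 2.75 without. It was at least 11.5-fold higher and was not called (adjusted p = 0.0993). Its SE in the shared model was 1.28, which includes its spread at 4 hpf with RA. It was called where only the 4 arrays of 6 hpf entered the fit (adjusted p = 0.00183) and with quantile normalization (0.0355). It was also called with 32 added to the linear values (0.00295) and with values below background raised to that level (0.00298). Every untreated array of *hoxa5a* lay below background. Both settings shrink the spread of such values, and raising removes it, so that the SE shrinks with it. It was not called with a common median (0.0962) or with only probe sets above background on at least 2 arrays (0.0915). Nor was it with no intensity trend (0.194), an additive replicate block (0.157) or a block within stage (0.25). Without single arrays of 6 hpf the difference was 6.08 to 6.84. The other 3 genes of group 6 were not called at this stage. *hoxc6a* was at 4.33 and 5.42 with RA and at 3.95 and 2.20 without (adjusted p = 0.629), with 1 array just above background. *hoxc6b* was at 1.92 and -0.86 against -0.24 and -0.59, and *hoxb6a* at 1.28 and 1.32 against 1.07 and 0.59, all below background.

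In 7 of the 8 genes the treated and untreated arrays did not overlap at 6 hpf, among them *hoxb6a*, which lay below background in both groups. The share of all probe sets without overlap was not determined, so this count is a description only. The median difference over the 8 genes was 6.10 at 6 hpf (2.00 with values raised to background), and -0.02 over all probe sets. At this stage the Tag controls too had a higher median with RA (3.56 and 3.39) than without it (1.83 and 1.94). With all values below background raised to that level, *hoxb5b* was no longer called (adjusted p = 0.0585) while *hoxa5a* was (adjusted p = 0.00298). *hoxb5a*, *hoxc5a* and *hoxb6b* stayed called (adjusted p = 0.00973, 0.0138 and 0.0245). In this setting the spread of values below background no longer enters the SE. With no intensity trend in the model *hoxb6b* was not called (adjusted p = 0.079). The count of 4 fell to 1 without untreated 6 hpf array 1, to 2 without untreated array 2, and to 0 without either RA array. In those 2 fits without an RA array the adjusted p was 0.0666 and 0.0691 for *hoxb5a* and 0.0877 and 0.112 for *hoxb5b*.

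**Figure D2:**
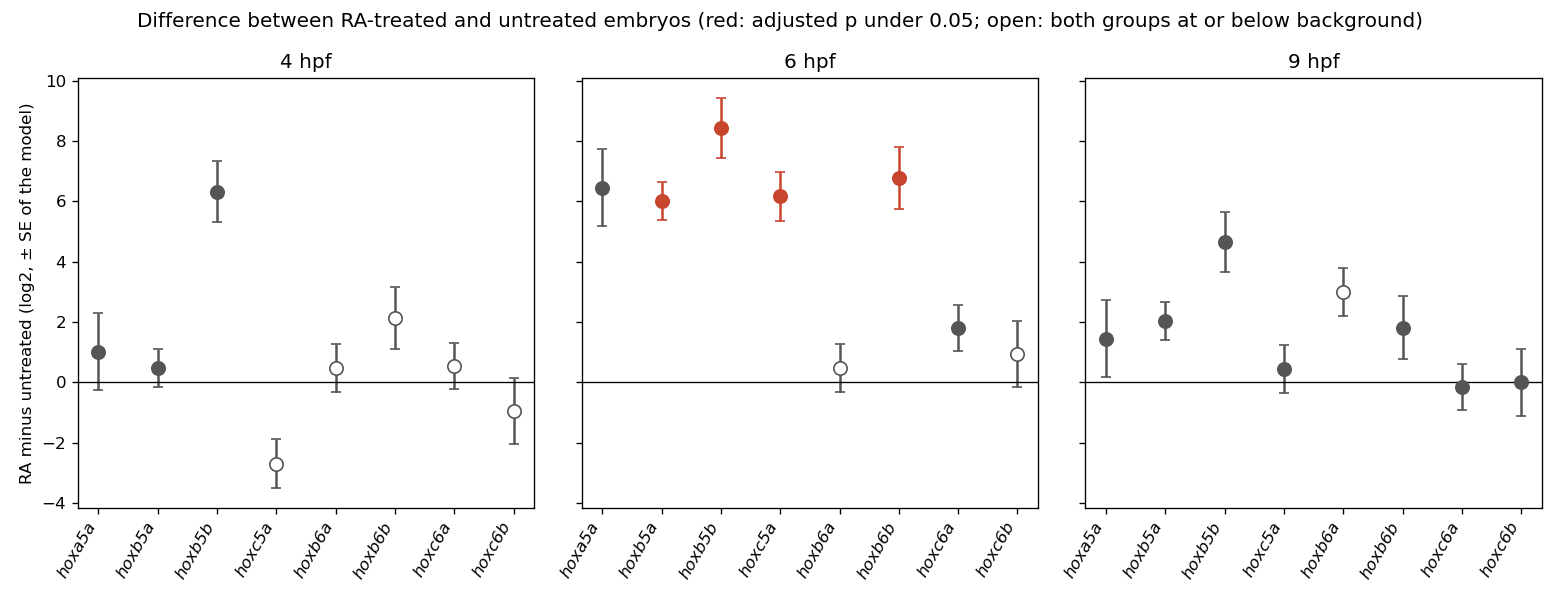
Difference between RA-treated and untreated embryos (vertical axis, log2, with the SE of the limma model as bars, n = 2 arrays a group) for the 8 genes at 4, 6 and 9 hpf, with genes called at an adjusted p under 0.05 in red and open symbols where both groups lie at or below background. The 4 called genes are at 6 hpf, and the differences of *hoxc6a* and *hoxc6b* at 9 hpf are near 0. Filled differences against a group below background are larger than the lower limits given in the text.

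At 9 hpf no gene of the 8 was called, and neither was any other probe set (0% of 15502, with 424 at an unadjusted p under 0.05, 3 of the 8 genes among them). The 3 are *hoxb5b*, *hoxb5a* and *hoxb6a*, the last below background in both groups. *hoxb5b* remained far apart between the treatments, at 10.85 and 10.09 with RA and 6.02 and 5.59 without. The difference was 4.66 ± 1.00 (SE, adjusted p = 0.617), with both RA arrays above both untreated ones. *hoxb5a* was at 8.84 and 7.41 against 6.23 and 5.96, a difference of 2.03 ± 0.63 (adjusted p = 1). *hoxb6b* was at 7.64 and 6.59 against 5.65 and 4.94, again without overlap (adjusted p = 1). *hoxa5a* was at 6.23 and 4.42 against 3.82 and 3.94, and *hoxc5a* at 5.62 and 5.68 against 5.09 and 5.33. Among these *hoxc5a* values only that of RA array 2 lay above the highest Tag control of its array, which was 5.74 on RA array 1.

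The hoxc genes of group 6 did not separate by treatment at 9 hpf. *hoxc6a* was at 7.75 and 6.48 with RA and 7.18 and 7.38 without, a difference of -0.17 ± 0.77, and *hoxc6b* at 6.86 and 6.21 against 7.23 and 5.85, a difference of -0.01 ± 1.1. The SEs are too wide to show that the levels were equal. *hoxb6a* was at 5.22 and 4.51 with RA and at 1.34 and 2.39 without, below background on all 4 arrays. In 7 of the 8 genes RA array 1 lay above RA array 2, by 0.65 to 1.81, and array 1 is the RA array with the lower yolk syncytial layer signal (12.3 against 13.6). The part of this difference was not tested.

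In RA-treated embryos the course over the stages followed from these levels. Between 4 and 6 hpf 6 of the 8 genes were called higher, against 21.2% of all probe sets. *hoxb5b* rose by 3.93 ± 1.00 (SE, adjusted p = 0.01), *hoxc5a* at least 3.03-fold (adjusted p = 0.000134) and *hoxb6b* at least 5.3-fold (adjusted p = 0.0108). *hoxb5a* and *hoxa5a*, each above background on RA 4 hpf array 2 alone, rose by 5.03 ± 0.63 (adjusted p = 0.000197) and by 5.56 ± 1.28 (adjusted p = 0.00582). The sixth was *hoxc6a*, above background on 1 of 2 arrays at 6 hpf (adjusted p = 0.00422). Between 6 and 9 hpf, where 6.77% of all probe sets were called higher, 2 genes were: *hoxc6b*, at least 2.35-fold (adjusted p = 0.00525), and *hoxb6a*, which lay below background at both stages (adjusted p = 0.0134). The count was 1 without RA 6 hpf array 1, 1 without RA 6 hpf array 2 and 1 without RA 9 hpf array 1. The arrays of 6 and 9 hpf did not overlap in any of the 8 genes, and the share of all probe sets without overlap was not determined. All 4 group 5 genes and *hoxb6b* of group 6 had lower means at 9 than at 6 hpf, and none was called lower. The decrease was widest for *hoxa5a*, at -3.50 ± 1.28 (adjusted p = 0.0944). It was -0.66 ± 1.00 for *hoxb5b* (adjusted p = 0.739) and -0.60 ± 1.03 for *hoxb6b* (adjusted p = 0.781). From 4 to 9 hpf 7 genes were called higher, all but *hoxa5a*, against 26.2% of all probe sets. Of these 7, *hoxb6a* lay below background at both stages, and with values raised to background the count was 4.

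Whether the difference made by RA itself changed between stages was tested as an interaction. For 6 against 4 hpf, 0 of the 8 genes were called (0.00645% of all probe sets), with 4 at an unadjusted p under 0.05 (819 of all 15502 probe sets). The lowest adjusted p were 0.0718 for *hoxc5a* and 0.0774 for *hoxb5a*. For *hoxc5a* the interaction includes a difference of -2.70 at 4 hpf, where both groups lay below background. For 9 against 6 hpf 0 were called as well (0.00645%), with 6 at an unadjusted p under 0.05, *hoxb6a* among them (544 of all probe sets). In 7 of the 8 genes the difference was smaller at 9 than at 6 hpf, while it was larger at 9 hpf in 51.4% of all probe sets. The exception was *hoxb6a*, which lay below background throughout. Among the 7, *hoxc6b* lay below background in both groups at 6 hpf. For 9 against 4 hpf 0 were called (0%), with 2 at an unadjusted p under 0.05 (498 of all probe sets). The 2 are *hoxc5a*, below background in both groups at 4 hpf, and *hoxb6a*. A difference between stages in the response to RA was therefore not established for any of the 8 genes. Without RA 4 hpf array 2 the count for 6 against 4 hpf was 2, and without untreated 4 hpf array 2 it was 1.

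The a and b duplicates were compared through the difference of their 2 probe sets on the same array, since the level of one probe set cannot be set against that of another. The question is whether that difference (b minus a) changed with RA, and it was tested over the 3 stages by an exact two-sided permutation test in which the labels were exchanged within each stage. There are 216 arrangements, and the smallest p they allow is 0.00926. A single stage with 2 against 2 arrays cannot go below 0.333.

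For *hoxb5*, the difference rose with RA at each stage. It was -2.94 and -3.27 at 4 hpf, -2.34 and 0.82 at 6 hpf and -0.22 and -0.37 at 9 hpf in untreated embryos. With RA it was 2.13 and 3.39, 1.73 and 1.60, and 2.01 and 2.68, so that the treated arrays lay above the untreated ones at all 3 stages. The mean change over the stages was 3.64 (exact p = 0.00926, the smallest possible, and 0.0278 adjusted over the 3 pairs). With values raised to background it was 2.05, with the same p, made up of 1.85 at 4 hpf, 1.67 at 6 hpf and 2.64 at 9 hpf. Both untreated duplicates lay below background at 4 and 6 hpf, so their raised difference there was 0. The raised changes at these stages therefore only set the RA levels of the 2 probe sets against each other, and the unraised ones rest on values below background. Only at 9 hpf were both duplicates above background on all 4 arrays. On untreated 9 hpf array 2, however, *hoxb5b*, at 5.59, lay below the highest Tag control of that array (5.83). At 9 hpf *hoxb5b* changed more with RA than *hoxb5a* did on these probe sets, by 2.64. The p over the 3 stages does not settle this, as 9 hpf alone cannot go below 0.333. Whether the 2 probe sets respond equally to equal amounts of RNA was not tested.

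For *hoxb6*, the difference was 6.46 and 6.35 with RA at 6 hpf against -0.35 and 0.54 without, where *hoxb6b* alone stood above background and only with RA. At 9 hpf it was 2.42 and 2.08 with RA and 4.31 and 2.56 without. As *hoxb6a* lay below background on all 4 of these arrays, the direction at 9 hpf is not settled: the change was -1.19 as deposited and 1.64 with values raised to background. At 4 hpf both genes lay below background. The mean change over the stages was 2.26 (exact p = 0.167, 0.25 adjusted over the 3 pairs). With 32 added to the linear values it was 1.21 (exact p = 0.037). For *hoxc6* the mean change was -0.73 (exact p = 0.37, also 0.37 adjusted). At 9 hpf, where both *hoxc6* duplicates were above background on all 4 arrays, the difference was 0.05 and -1.53 without RA and -0.89 and -0.27 with it, ranges that overlap. Before 9 hpf only *hoxc6a* on RA 6 hpf array 2 was above background, and with values raised to that level the mean change was 0.03 (exact p = 1).

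**Figure D3:**
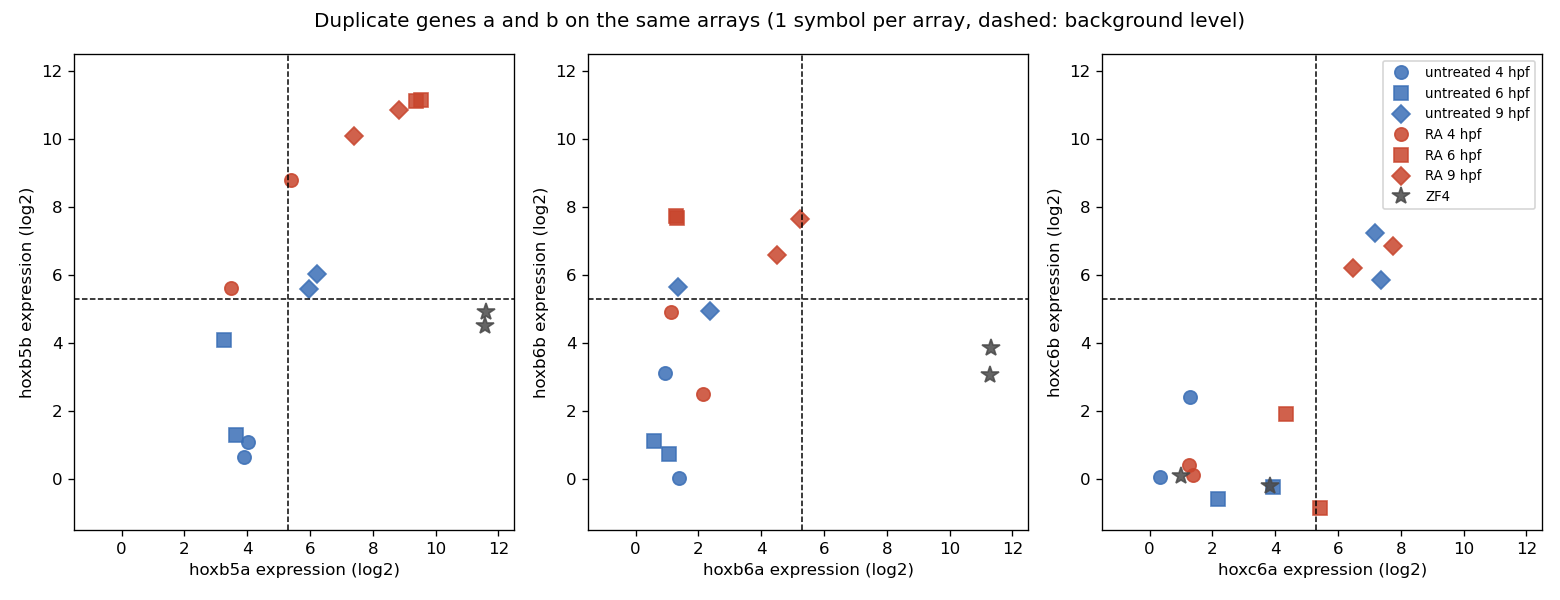
The b duplicate (vertical axis, log2) against the a duplicate (horizontal axis, log2) on the same arrays, 1 symbol per array, for *hoxb5*, *hoxb6* and *hoxc6*, with untreated embryos in blue, RA-treated embryos in red and ZF4 as grey stars, stages by symbol and the background level of 5.30 as dashed lines. At 6 and 9 hpf the RA arrays stand high for both *hoxb5* duplicates, at 6 hpf they stand high for *hoxb6b* alone, and ZF4 stands high for the a duplicate alone in *hoxb5* and *hoxb6*.

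In ZF4 cells the a duplicates of the B cluster were high and the rest of the 8 genes were below background. *hoxb5a* was at 11.61 and 11.59, higher than in untreated 9 hpf embryos by 5.50 ± 0.57 (SE, adjusted p = 1.16e-05) and at least 78.7-fold above 4 hpf (adjusted p = 4.83e-07). *hoxb6a*, its neighbour, was at 11.32 and 11.29, at least 64.1-fold above untreated 9 hpf embryos (adjusted p = 7.25e-07), whose arrays were at 1.34 and 2.39. Their b duplicates were at 4.90 and 4.49 (*hoxb5b*) and at 3.85 and 3.05 (*hoxb6b*) in ZF4. With these b duplicates raised to background, the difference b minus a on the same arrays was -6.31 and -6.29 for *hoxb5* and -6.02 and -5.99 for *hoxb6*, which is a lower limit of its size. It lay below the value of every embryo array.

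The other genes were low in the cell line. *hoxc6a* was at 3.85 and 1.01, at least 3.95-fold lower than in untreated 9 hpf embryos (adjusted p = 0.00136), and *hoxc6b* at -0.19 and 0.08, at least 2.36-fold lower (adjusted p = 0.000335). *hoxa5a*, at 3.61 and 2.66, and *hoxc5a*, at 3.88 and 3.0, were below background too. Against untreated 9 hpf embryos 2 of the 8 genes were called higher, where 21.6% of all probe sets were, and 2 lower, where 23.8% were. Against untreated 4 hpf embryos 3 were called higher and 0 lower, where 23.6% of all probe sets were called higher, the third being *hoxb5b* with both groups below background (adjusted p = 0.00518). The calls of *hoxb5a* and *hoxb6a* against either stage held under all settings tried, those without 1 array included.

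Each gene's groups could be put in order of their means. *hoxa5a*, *hoxb5b*, *hoxc5a* and *hoxb6b* were highest with RA at 6 hpf and next highest with RA at 9 hpf, without overlap of the arrays of these 2 groups. *hoxb5a* was highest in ZF4, followed by RA at 6 hpf, RA at 9 hpf and untreated 9 hpf, again without overlap between neighbours in that order. For none of these genes was the difference between RA at 6 and at 9 hpf called, and for *hoxb6b* the nearest arrays were at 7.67 and 7.64. The share of all probe sets without overlap was not determined, so the order is a description only. For *hoxb6a* ZF4 stood alone above background. *hoxc6a* and *hoxc6b* were highest at 9 hpf, where treated and untreated arrays overlapped. For *hoxb5b* the third place, RA at 4 hpf (5.61 and 8.78), overlapped with the fourth, untreated 9 hpf (6.02 and 5.59).

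Genes with a course like that of each member were sought among 6452 named genes, by Pearson's r over the 12 embryo arrays with values below background raised to it. These arrays share the 6 groups, and r is given as a description. Nearest to *hoxb5a* was *hoxb6b* (r = 0.990), the b duplicate of its cluster neighbour, and the reverse also held. The next for *hoxb6b* were *hoxa3a* (0.968) and *hoxa4a* (0.963), and the same 2 genes headed the order for *hoxb5b* (0.967 and 0.961), followed by *insm1b* (0.940). For *hoxb5a* they were *mmp11b* (0.979) and *hoxa3a* (0.966). *hoxa5a* was most like *hoxc1a* (0.988), *pfkfb3* (0.984) and *foxn4* (0.980), and *hoxc5a* most like *adarb1a* (0.977), *sema3d* (0.965) and *pfkfb3* (0.963). The course of *hoxc6a* was closest to *cldn5a* (0.998), *cdx1a* (0.988), a caudal-type homeobox gene, and *plppr3a* (0.987). That of *hoxc6b*, above background on the 9 hpf arrays alone, was closest to *pax2a* (0.999), *myl10* (0.974) and *hoxa9a* (0.974). *hoxb6a*, below background in every embryo group, was left out.

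Among the other 34 *hox* genes, 4 were called higher with RA at 6 hpf and 0 lower. These are the more anterior genes *hoxa4a* (at least 31.6-fold, adjusted p = 0.0033), *hoxb3a* (at least 30.9-fold, adjusted p = 0.0249), *hoxa3a* (at least 16.9-fold, adjusted p = 0.00674) and *hoxb1a* (at least 10.2-fold, adjusted p = 0.00567). In all 9 of the 34 were above background on both RA arrays and on no untreated array, and 5 of these 9 were not called. Among them, and named after their values were seen, *hoxc1a* had a mean of 7.42 with RA and 0.82 without (at least 4.33-fold, adjusted p = 0.113), *hoxb4a* of 7.11 and 3.91 (at least 3.49-fold, adjusted p = 0.182) and *hoxc4a* of 6.08 and 2.86 (at least 1.71-fold, adjusted p = 0.356). The median difference over the 34 was 0.47, and 0 with values raised to background. The difference between these genes and those of groups 5 and 6 was not tested. At 4 and at 9 hpf 0 of the 34 were called. Of 27 listed genes of RA metabolism, binding and reception 18 were measured, and 2 were higher and 1 lower at 6 hpf. *cyp26a1* rose as given above, *nrip1b*, a nuclear receptor corepressor gene, by 1.90 ± 0.25 (adjusted p = 0.0114), and *aldh1a2*, which encodes the RA-synthesizing enzyme, was at 7.24 with RA and 10.01 without (adjusted p = 0.00837). The median difference over the 18 was 0.69, and 0.10 with values raised to background. Of 24 listed genes of Hox partners and upstream regulators 19 were measured, and 2 were higher and 0 lower. Both encode TALE homeodomain cofactors of Hox proteins, *meis2b* (at least 12.8-fold, adjusted p = 0.0033) and *meis3* (at least 6.62-fold, adjusted p = 0.035). The median difference over the 19 was 0.03, and 0 with values raised to background. At 9 hpf 0 genes of either list were called.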

How the data were processed

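Total RNA was isolated with Trizol and hybridized to 14 Affymetrix Zebrafish arrays. The authors corrected the deposited log2 values for background by mas5 and normalized them by invariantset with expresso of affy (2.15.2 in the submitters' processing notes). The summary method is not given in the sources used here, and the base of the logarithm was read from the range of the values (-5.303 to 13.9). Array medians lay between 6.109 and 6.305, and the number of arrays limits the precision.

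Of 15617 probe sets 115 controls were left out of the tests. Of the rest 10795 name 1 gene, 135 several and 4572 none in the platform annotation, and 8 of 8 members were found. Contrasts between groups were fitted in limma (3.58.1, under R 4.3.3) (group means over the 12 embryo arrays, or all 14 for ZF4, eBayes with trend, Benjamini-Hochberg over 15502 probe sets). The limma fit and the permutation test were each checked on simulated data with known changes before use. All 8 members, up to 4 called genes of each list and the 3 genes most like a member are named. The members follow from their gene symbols, and this rule and the lists were set with earlier results of these data known. Alternatives changed the normalization, the treatment of low values, the probe sets tested, the arrays fitted, the trend, the replicate block and single arrays. The mean over several probe sets was not run, since each member has 1 probe set.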

Additional observations from a re-analysis of the deposited data

How the results depend on the processing

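Of 38 calls among the 8 genes over all comparisons, 12 were kept in every setting and 0 changed direction. With 2 arrays a group, single arrays decide many calls. The counts of genes called changed as follows, and the cause was not tested. At 4 hpf, RA against untreated went from 0 to 1 with a common median (0 to 1 without single arrays). At 6 hpf, RA against untreated went from 4 to 2 with a replicate block within stage. It went to 5 with quantile normalization, with 32 added and with only the arrays compared, where *hoxa5a* was gained. With no intensity trend *hoxb6b* was lost. Over the alternatives other than leaving out an array, RA 6 against 4 hpf ranged from 5 to 6. ZF4 against untreated 9 hpf ranged from 4 to 5 and ZF4 against untreated 4 hpf from 2 to 3. Without single arrays the count for RA 6 against 4 hpf also went below its range. That for RA 9 against 4 hpf went below and above its main count of 7. Untreated 6 against 4 hpf went from 1 to 2 with quantile normalization and to 0 with 32 added, with values raised to background, with only the arrays compared, with a replicate block within stage and with an additive replicate block whose numbers were crossed for untreated 6 hpf, which was added after seeing the data (0 to 1 without single arrays). Untreated 9 against 6 hpf went from 5 to 3 with 32 added and with no intensity trend, and to 1 with values raised (3 without any single array). Untreated 9 against 4 hpf went from 6 to 1 with values raised (3 to 5 without single arrays). RA 9 against 6 hpf went from 2 to 5 with 32 added and to 1 with a replicate block within stage (1 to 2 without single arrays), and RA 9 against 4 hpf from 7 to 4 with values raised. The interaction of RA with stage went from 0 to 1 for 6 against 4 hpf with 32 added, with values raised and with no intensity trend (0 to 2 without single arrays), and from 0 to 1 for 9 against 6 hpf with values raised. *hoxb5b* at 4 hpf with RA fell below the 99th percentile of the Tag controls on 1 array, so that 0 genes stood above it. Over the other settings the number of genes above background was 3 to 4 in untreated 9 hpf embryos and 5 to 6 with RA at 9 hpf. Between duplicates, the change for *hoxb6* was 1.21 with 32 added (exact p = 0.037) and that for *hoxc6* turned from -0.73 to 0.03 with values raised to background. For *hoxb5* it ranged from 2.05 to 3.58 under the 3 other scalings and from 3.12 to 4.17 without single arrays (exact p = 0.00926 to 0.0185).

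Same-numbered arrays share only a number in the labels. Their deviations from the group means correlated at 0.721 between treatments at 4 hpf, 0.034 at 6 hpf and -0.779 at 9 hpf over probe sets with a mean over 7, and at 0.272, -0.0234 and -0.382 over all. With an additive replicate block 3 of the 8 genes were called at 6 hpf with RA in place of 4, as *hoxb6b* was lost (adjusted p = 0.0519). With the block within stage *hoxb6b* (0.154) and *hoxc5a* (0.112) were lost. With crossed numbers at 9 hpf, added after seeing the data, 0 were called.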
